A study of Mus musculus with 3 samples.

Results

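The Dlk1 to Dio3 imprinted cluster of mouse chromosome 12 was followed in embryoid bodies of a Dido mutant. Its 6 named members are Dlk1, Meg3, Rtl1, Rian, Mirg and Dio3, found by gene name among the non-control probes of the arrays. Of these, 5 had probes, 9 in all on chromosome 12, and no probe carried the name Rian, which was not analysed here. A filter on low signal kept 8 probes of 4 members, Dlk1, Meg3, Mirg and Dio3, among 19667 genes tested in all. The members were chosen by their mutant over wild-type ratios on these arrays, so those ratios are given as a description, without a test.

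The mutant, labelled Dido3deltaCT+HADidoNT, carries Dido3 cut short at its C-terminus. It overexpresses, in addition, the N-terminal region common to the Dido isoforms, tagged with HA. Embryoid bodies are clumps of embryonic stem cells that differentiate while floating, and those of the Wildtype control were grown in parallel. Both genotypes spent 10 days in suspension without LIF, the cytokine that maintains self-renewal of mouse embryonic stem cells. There were 3 biological replicates per genotype and 3 arrays, each hybridised with 1 mutant and 1 wild-type RNA. The mutant RNA carried Cy3 on arrays 1 and 3 and Cy5 on array 2, which leaves any dye effect partly in the mean. The sources used here give neither the promoter of the added construct nor the number of cell lines or clones.

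Imprinted genes are transcribed mainly from the chromosome of 1 parent. In this cluster the protein-coding genes Dlk1, Rtl1 and Dio3 are expressed mainly from the paternal chromosome, and the long noncoding RNAs Meg3, Rian and Mirg from the maternal chromosome, under a methylated control region between Dlk1 and Meg3. The noncoding RNAs run in the same direction and host many microRNAs and C/D small nucleolar RNAs. In mouse pluripotent stem cells the maternal noncoding RNAs are known to be silenced in some lines and active in others.

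The probes below gave the lower of the Dlk1 ratios, both Mirg ratios and those of the second and the third Meg3 probe. All are 60 bases long, printed 5′ to 3′ in lower case, on the plus strand of mm9. They are shown because probes of the same gene gave different ratios.
Dlk1, chr12:110698502-110698561: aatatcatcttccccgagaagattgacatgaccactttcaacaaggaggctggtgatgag
Meg3, chr12:110799558-110799617: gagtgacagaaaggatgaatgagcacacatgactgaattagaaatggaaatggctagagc
Meg3, chr12:110809678-110809737: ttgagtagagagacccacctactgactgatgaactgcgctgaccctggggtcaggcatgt
Mirg, chr12:110979653-110979712: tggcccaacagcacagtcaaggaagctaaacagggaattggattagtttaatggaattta
Mirg, chr12:110987569-110987628: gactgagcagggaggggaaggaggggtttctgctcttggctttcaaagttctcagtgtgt

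The Dlk1 probe lies at base 1294 of its RefSeq transcript. In chromosome order Meg3 had 3 probes, of which the second (base 4169 of transcript variant 1) and the third (base 1651 of variant 3) are printed. The G and C content of these probes ran between 40.0% (the first Mirg probe) and 55.0% (the third Meg3 probe). Exons were not assigned to the probes, as no annotation of mm9 was used.

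The Dido1 gene itself had 4 probes, on chromosome 2, with ratios in both directions. The log2 ratios of mutant over wild type were 3.03 ± 0.34, 2.35 ± 0.40, -3.61 ± 0.17 and -0.54 ± 0.93 (SD, n = 3 arrays), in the order of the probes starting at 180405604, 180419747, 180415861 and 180393086 (mm9). The last, nearest the 3′ end of this minus-strand gene, read -1.61, 0.05 and -0.07 on arrays 1, 2 and 3, and without the limit on local background the first read 0.43 on array 2. Ratios over all genes correlated at 0.794 between arrays 1 and 3, at 0.377 between arrays 1 and 2 and at 0.193 between arrays 2 and 3. Array 2 thus stands apart, and as the only array with exchanged dyes its dye and its replicate cannot be told apart. In limma with Benjamini-Hochberg adjustment, 325 of 19667 genes passed (1.65%), 249 higher and 76 lower in the mutant, and 3910 genes (19.9%) had an unadjusted p under 0.05. After adjustment, 0 genes passed without array 1 or without array 3, and without array 2 the genes that passed were 3047 higher and 2035 lower.

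The noncoding RNAs Meg3 and Mirg and the paternally expressed deiodinase gene Dio3 were higher in the mutant on every array, while Dlk1 was not. On the brightest probe of each gene the log2 ratio averaged 1.33 for Meg3, 1.84 for Mirg, 2.19 for Dio3 and 0.28 for Dlk1. Of the 4 members that passed the filter, 3 were higher on all 3 arrays, against 22.5% of all genes tested, and none of the 4 was lower on all of them on its brightest probe, against 19.1%. Mirg and Dio3 were at least 2-fold higher on all 3 arrays, as were 3.1% of all genes, and no member was at least 2-fold lower on all of them (1.08% of all genes). These ratios chose the members, so nothing is read from the shares. Single probes gave the same picture, with 6 of the 8 kept probes higher on all arrays (23% of 25496 kept probes), 5 of them at least 2-fold (3.13%) and 1 lower. In bulk embryoid bodies, more cells that express a gene and more RNA per cell cannot be told apart.

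**Figure D1:**
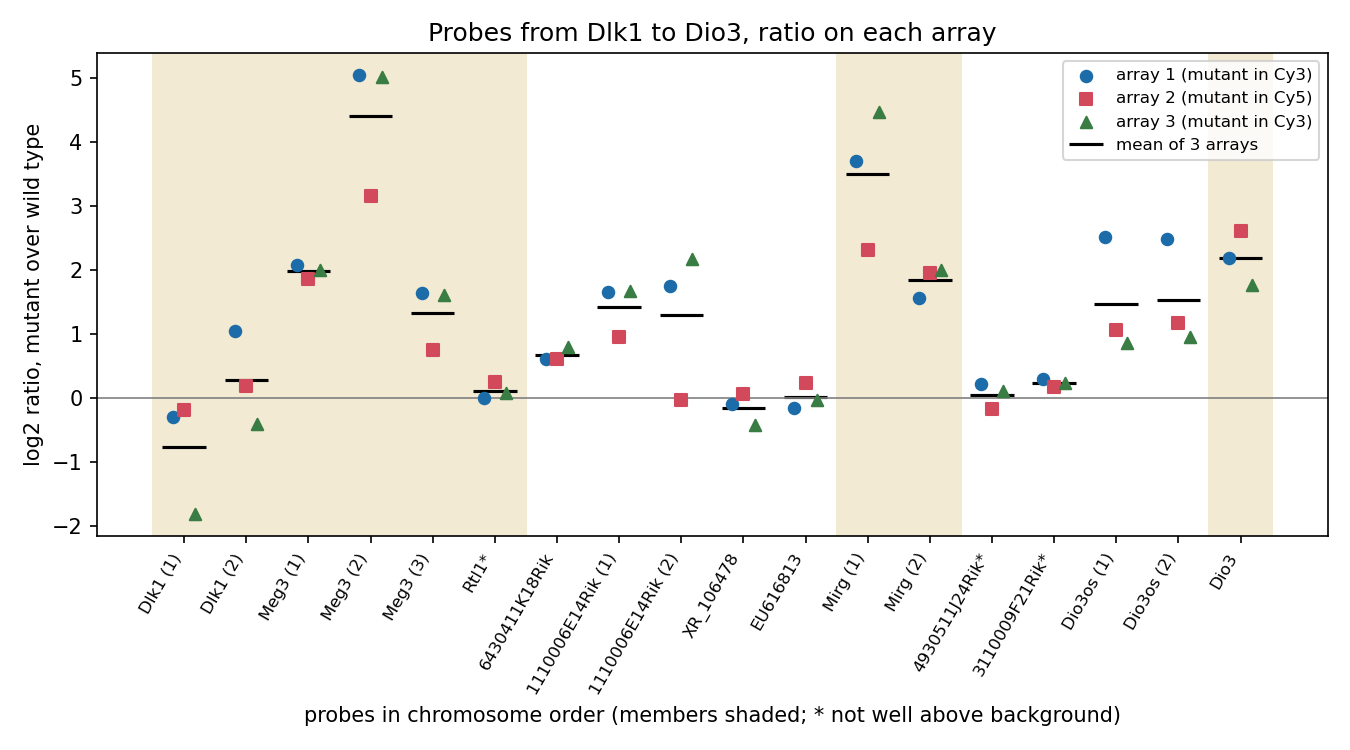
Log2 ratio of mutant over wild type on each of the 3 arrays (vertical axis) for every probe between Dlk1 and Dio3 in chromosome order (horizontal axis), with cluster members shaded and bars at the mean of 3 arrays. All points of Meg3, Mirg and Dio3 lie above 0, those of Dlk1 lie on both sides of 0, and Meg3 spans 0.75 to 5.05.

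Meg3 is a long noncoding RNA with growth-suppressing activity in cell lines, and it starts the row of maternal RNAs. Its first probe read a normalized intensity of 13590, 23550 and 28280 in the mutant on arrays 1, 2 and 3, against 3234, 6482 and 7119 in wild type. The genotypes did not overlap, and the log2 ratios of 2.07, 1.86 and 1.99 were the closest together of any member probe, at 1.97 ± 0.11 (SD, n = 3 arrays, 3.93-fold). Normalized intensity is the brightness of a channel after background correction and scaling, in arbitrary units. It is compared here between genotypes within a probe or, for marker lists, as a sum over the probes of the list. Such a sum is set mostly by the brightest probes. The share of all kept probes without overlap between the genotypes was not computed. As the ratios chose the members, nothing is read from the lack of overlap at their probes.

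The second Meg3 probe gave the largest ratio of the cluster. It read 5076, 2697 and 7012 in the mutant, against 153.8, 304.5 and 216.1 in wild type. Every mutant value was above every wild-type value, and the lowest mutant and the highest wild-type value were both on array 2. The log2 ratios were 5.05, 3.15 and 5.02, with a mean of 4.40 ± 1.09 (21.2-fold). This ratio leaned on how the background of array 2 was handled, since without a limit on local background the array 2 ratio was 1.54. Over 9 ways of correcting and normalizing the signal the mean stayed between 3.59 and 4.99.

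The third Meg3 probe, the brightest, which stood for the gene, had the smallest ratio. It read 97110, 58100 and 87010 in the mutant, against 31310, 34540 and 28430 in wild type, again without overlap. The log2 ratios were 1.63, 0.75 and 1.61, a mean of 1.33 ± 0.50 (2.52-fold). The second probe exceeded the first by 2.97, 1.29 and 3.03 log2 units, and the third lay below the second by 3.41, 2.40 and 3.41 units. The 3 probes thus had the same order on every array with the limit on local background. Without it the second minus the first was -0.22 log2 units on array 2.

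Rian, the next maternal RNA and host of C/D small nucleolar RNAs, had no probe of its own. Between Meg3 and Mirg on the plus strand lay probes with other names, which were not assigned to Rian. They left a gap, with no probe between 53.9 and 151.4 kb beyond the first Meg3 probe. The name 1110006E14Rik was read by a pair of probes with log2 ratios of 1.66, 0.95 and 1.66 (1.42 ± 0.41) and of 1.75, -0.04 and 2.16 (1.29 ± 1.17). The brighter of them, the second, did not pass in limma (adjusted p = 0.236). Transcript XR_106478 read -0.15 ± 0.24 (limma adjusted p = 0.735) and EU616813 read 0.01 ± 0.20 (limma adjusted p = 0.985), both dim and each well above background in wild type on 2 of 3 arrays. Of the 10 kept plus-strand probes from Meg3 to Mirg, 7 were higher in the mutant on all arrays (23% of all kept probes were), namely the 5 Meg3 and Mirg probes, whose ratios chose the members, and 2 of the 5 others. The mean log2 ratios of the 10 probes ran between -0.15 and 4.40 with a median of 1.38.

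Mirg, the microRNA host RNA at the far end of that row, was higher at both of its probes. The first read 13270, 9543 and 26120 in the mutant, against 1016, 1932 and 1185 in wild type. Its log2 ratios of 3.71, 2.30 and 4.46 averaged 3.49 ± 1.10 (11.2-fold), and the genotypes were far apart on each array. The second Mirg probe, which stood for the gene, read 8118, 10080 and 8284 in the mutant, against 2748, 2601 and 2071 in wild type. Its log2 ratios were 1.56, 1.96 and 2.00, a mean of 1.84 ± 0.24 (3.58-fold), also without overlap. The second probe lay below the first by 2.15, 0.35 and 2.46 log2 units, so arrays 1 and 3 separated these probes more than array 2, as they did the second Meg3 probe from the other Meg3 probes.

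**Figure D2:**
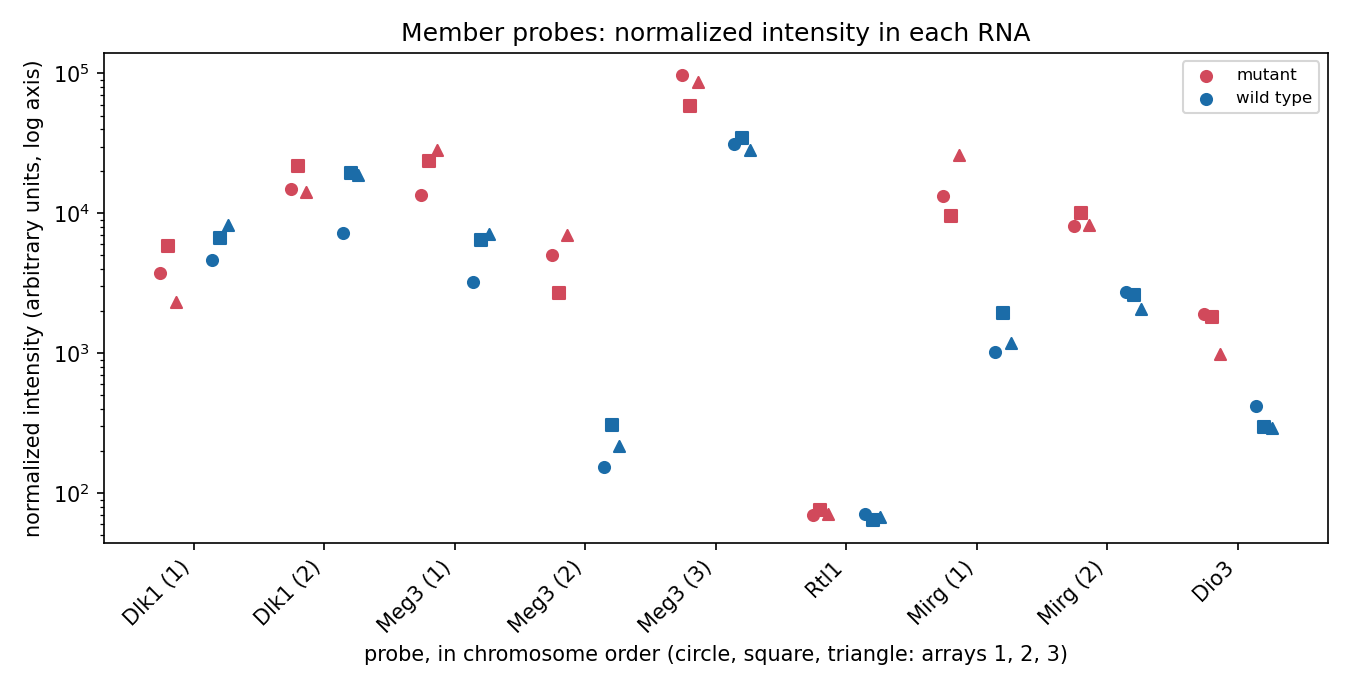
Normalized intensity in arbitrary units on a log axis for the 9 member probes, mutant left of wild type, with circle, square and triangle for arrays 1, 2 and 3. The genotypes do not overlap at the Meg3, Mirg and Dio3 probes (2697 to 7012 in the mutant against 153.8 to 304.5 in wild type at the second Meg3 probe), overlap at both Dlk1 probes, and lie at about 70 units at Rtl1. The members were chosen by their ratios on these arrays.

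The arrays did not measure the mature microRNAs, so the following gives only what Mirg carries. RefSeq (GRCm38.p6) lists 58 microRNA hairpins between Dlk1 and Dio3, 10 of them with 19 mature microRNAs inside Mirg. They are shown because the Mirg ratios concern the RNA that hosts them. Among these 19, only miR-453 and miR-496a-5p share a seed, and miR-410-3p is given for contrast. Capitals mark the seed, bases 2 to 8.
miR-453: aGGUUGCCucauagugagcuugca
miR-496a-5p: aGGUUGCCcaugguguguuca
miR-410-3p: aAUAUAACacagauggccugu

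The proteins that make and bind such small RNAs, among them Drosha, Dicer1 and the C/D small nucleolar RNA core proteins Fbl, Nop56 and Nop58, were read as a list of 13 genes. None of the 13 passed in limma, 1 had an unadjusted p under 0.05, and the list median was -0.12, against -0.01 for all genes tested. Smallest in p was Dgcr8, the RNA-binding partner of Drosha, at -0.71 (limma adjusted p = 0.222). The let-7 regulator Lin28a stood at 0.75 (limma adjusted p = 0.29) and the nuclear exporter Xpo5 at -0.38 (limma adjusted p = 0.362).

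Dio3 encodes the type 3 deiodinase, which inactivates thyroid hormone, and lies at the far end of the cluster, 736 kb beyond the first Meg3 probe. Its only probe, chr12:111518792-111518851, read 1907, 1824 and 985.9 in the mutant, against 417.4, 298.6 and 290 in wild type. The lowest mutant value, on array 3, was above every wild-type value. The log2 ratios were 2.19, 2.61 and 1.77, a mean of 2.19 ± 0.42 (4.56-fold). Without the limit on local background the array 2 ratio was 1.12 and the mean 1.69.

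Dio3os, the noncoding RNA transcribed from the opposite strand next to Dio3, was read at a single position by a pair of probes that differ at 3 of 60 bases. Their log2 ratios were 2.52, 1.05 and 0.85, and 2.48, 1.17 and 0.95. The brighter probe averaged 1.53 ± 0.83 and did not pass in limma (adjusted p = 0.111), although higher on 3 of 3 arrays. Dio3 was highest on array 2 and Dio3os on array 1, while without the limit on local background both were highest on array 1 and lowest on array 2.

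Genes that carry, transport or respond to thyroid hormone formed a list of 16, of which 12 were measured. Of these, 1 rose in limma (1.27% of all genes did) and none fell, 5 had an unadjusted p under 0.05 (19.9% of all genes), and the list median was 0.33. The gene that passed was Ttr, the carrier of thyroxine, at 2.59 ± 0.69 (limma adjusted p = 0.0458). The thyroid hormone receptor gene Thra stood at 1.64 ± 0.75 (limma adjusted p = 0.0865) and the transporter gene Slc16a10 at 1.52 ± 0.66 (limma adjusted p = 0.0853). The activating deiodinase gene Dio2 stood at 0.23 ± 0.40 (limma adjusted p = 0.644), and Dio1 did not pass the filter. Dio2 was named after its value was seen. Ttr is also a visceral endoderm marker.

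Dlk1 encodes a transmembrane protein with EGF-like repeats related to the Notch ligands, known as a marker of preadipocytes and of several progenitor tissues. Its brighter probe, chr12:110698721-110698781, read 14990, 21980 and 14100 in the mutant, against 7265, 19300 and 18690 in wild type. The genotypes overlapped and the log2 ratios changed sign, at 1.05, 0.19 and -0.41, a mean of 0.28 ± 0.73. The other probe, printed above, read 3769, 5796 and 2340 in the mutant, against 4658, 6649 and 8243 in wild type. It was lower in the mutant on all 3 arrays, at -0.31, -0.20 and -1.82, a mean of -0.77 ± 0.91, though the genotypes overlapped across arrays. The brighter probe exceeded the other by 1.35, 0.39 and 1.41 log2 units, so the direction for Dlk1 depends on the probe, and the spread between arrays is as large as the means.

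Set against Dlk1 on the same array, Meg3, Mirg and Dio3 had the higher ratio each time. The brightest probe of Meg3 exceeded that of Dlk1 by 0.59, 0.56 and 2.02 log2 units. Mirg exceeded it by 0.52, 1.77 and 2.41 units. Dio3 exceeded it by 1.15, 2.42 and 2.17 units. Their order among themselves was not fixed. The mean of Dio3 was above that of Mirg here (2.19 against 1.84) but below it without the limit on local background (1.69 against 1.76), and between Mirg and Meg3 the sign varied by array, with Mirg minus Meg3 at -0.07, 1.20 and 0.39 units.

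Genes of the Notch pathway, to which Dlk1 is related, were measured for 20 of 21. None passed in limma, 7 had an unadjusted p under 0.05 (19.9% of all genes), and the median was -0.09. On all arrays 2 were higher and 7 lower, against 22.5% and 19.1% of all genes. Notch1, a receptor, stood at 3.61 ± 1.43 (limma adjusted p = 0.0585), against -2.10 ± 0.80 (limma adjusted p = 0.0637) for Lfng, which modifies Notch receptors, and -1.66 ± 0.61 (limma adjusted p = 0.0681) for the ligand gene Dll3. The list holds Hes5, which is also a neural marker.

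Rtl1, a retrotransposon-derived gene needed in the mouse placenta, was not well above background in either genotype on any array. Its probe, chr12:110828379-110828438 on the minus strand, read 70.27, 75.78 and 70.86 in the mutant, against 70.67, 63.89 and 67.47 in wild type. The genotypes overlapped at this floor and no fold change is given. The transcript 6430411K18Rik, read on the opposite strand to Rtl1, was low but detected, with 188, 177.3 and 164.4 in the mutant, against 123.4, 115.9 and 94.88 in wild type. Its log2 ratios of 0.61, 0.61 and 0.79 averaged 0.67 ± 0.11 and did not pass in limma (adjusted p = 0.145), and without the limit on local background the array 2 ratio was 0.06.

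Other genes derived from the same class of retrotransposons were measured for 8 of 11. None passed in limma, 1 had an unadjusted p under 0.05, and the median was 0.12. Rtl4 stood at 1.29 (limma adjusted p = 0.108), Rtl5 at -0.95 (limma adjusted p = 0.287) and the placental gene Peg10 at 0.84 (limma adjusted p = 0.327).

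The starts of the members differ in sequence, as RefSeq (GRCm38.p6) gives them in windows of 250 bases before to 50 bases after the start. The Meg3 start is printed whole and the Dlk1 and Dio3 starts as the 250 bases before the transcript, because Meg3 and Dio3 were higher in the mutant and Dlk1 was not. Capitals mark CG dinucleotides, the bases at which DNA methylation is placed.
Meg3: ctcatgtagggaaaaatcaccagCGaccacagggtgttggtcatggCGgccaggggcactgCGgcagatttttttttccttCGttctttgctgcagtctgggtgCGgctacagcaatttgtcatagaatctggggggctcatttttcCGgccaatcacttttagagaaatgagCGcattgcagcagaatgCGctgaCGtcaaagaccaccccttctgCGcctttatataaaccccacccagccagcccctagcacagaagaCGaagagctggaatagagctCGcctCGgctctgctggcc
Dlk1: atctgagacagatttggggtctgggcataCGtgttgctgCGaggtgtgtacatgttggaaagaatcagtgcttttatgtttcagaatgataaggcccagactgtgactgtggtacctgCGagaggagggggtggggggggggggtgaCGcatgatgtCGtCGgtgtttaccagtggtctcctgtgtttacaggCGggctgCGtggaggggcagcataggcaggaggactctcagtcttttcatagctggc
Dio3: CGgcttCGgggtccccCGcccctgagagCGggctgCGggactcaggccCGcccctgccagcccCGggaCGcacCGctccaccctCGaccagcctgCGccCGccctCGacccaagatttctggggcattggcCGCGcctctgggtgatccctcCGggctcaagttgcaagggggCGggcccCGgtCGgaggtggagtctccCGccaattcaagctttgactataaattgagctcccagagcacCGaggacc

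Over the 300-base window the Dio3 start holds 25 CG dinucleotides, more than 81.6% of 32851 mouse promoters. The printed Meg3 start holds 13 (more than 62.1%), Mirg 10 (more than 56.5%) and Dlk1 9 (more than 54.2%), against a median of 7, and the start given for Rian holds 0. The other start listed for Meg3 holds 1 (more than 5.43%). The Meg3 window has the cyclic AMP response element TGACGTCA, sought on both strands, at base 194, a motif that 1.79% of promoters hold. It also has TGCCGC, the core recognised by the imprint-keeping zinc finger protein ZFP57 when methylated, at base 61 on the opposite strand (11.6% of promoters on either strand). The TATAAA box occurs at base 226 of Meg3 and at base 220 of Dio3 on the printed strand, and at base 222 of Meg3 on the opposite strand, overlapping the match at 226 (13.6% of promoters on either strand), and none of the 3 motifs occurs in the windows of Dlk1, Rian or Mirg. Matches of letters are a description of these windows, and DNA methylation was not measured here.

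The rest of the neighbourhood was compared over 1 Mb on either side. Before Dlk1, 9 genes were tested, none passed in limma and none had an unadjusted p under 0.05. Their mean log2 ratios lay between -0.52 and 0.12, with a median of -0.17. Slc25a29, a mitochondrial carrier gene, was at -0.52 ± 0.64 (limma adjusted p = 0.415) and Evl, an actin regulator gene, at -0.48 ± 0.58 (limma adjusted p = 0.423). Among the 5 other genes tested between Dlk1 and Dio3 none passed, 3 had an unadjusted p under 0.05 (19.9% of all genes), and the median was 0.67. The transcripts 4930511J24Rik and 3110009F21Rik, between Mirg and Dio3, were not well above background in either genotype.

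Beyond Dio3, 19 genes were tested, with a median of 0.05 and means between -0.98 and 2.50. Of these, 7 had an unadjusted p under 0.05 (19.9% of all genes). On all arrays 5 were higher and 4 lower, against 22.5% and 19.1% of all genes. A single gene passed in limma, Rcor1, a subunit of a repressor complex with histone deacetylases. Its brighter probe read 781, 1353 and 1102 in the mutant, against 115.4, 261.3 and 213.2 in wild type. The log2 ratios were 2.76, 2.37 and 2.37, a mean of 2.50 ± 0.22 (5.66-fold, limma adjusted p = 0.0354), without overlap. Its other probe averaged 0.86 ± 0.14, and without the limit on local background, where no gene passed, array 2 read 0.87 at the brighter probe. The transcript 4930421J07Rik was at 1.20 ± 0.28 (limma adjusted p = 0.0669).

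**Figure D3:**
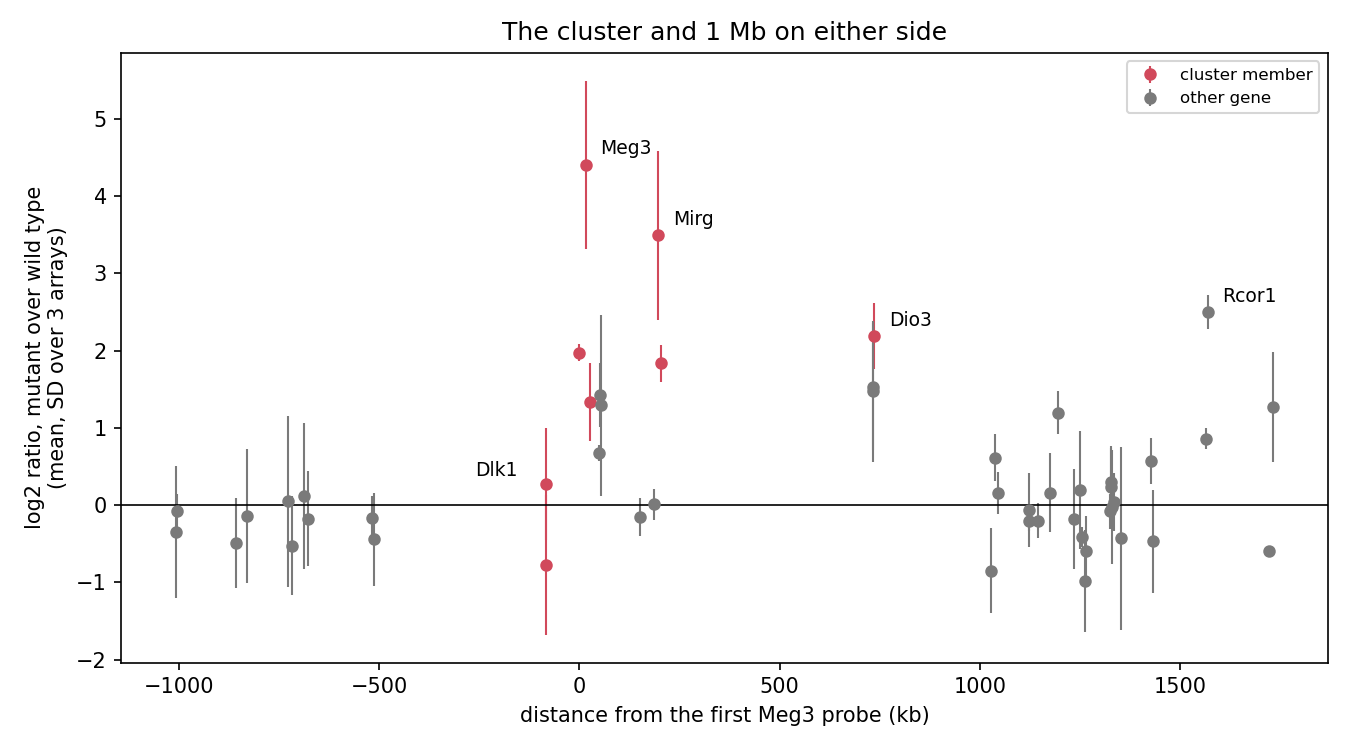
Mean log2 ratio of mutant over wild type with SD over 3 arrays (vertical axis) for each kept probe, by distance from the first Meg3 probe in kb (horizontal axis), with cluster members in red. Genes before Dlk1 lie near or below 0, Meg3, Mirg and Dio3 reach 1.33 to 4.40, and beyond Dio3 the gene Rcor1 stands at 2.50. The members were chosen by their ratios on these arrays.

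Imprinted genes outside the cluster moved both ways. Of 26 measured genes with maternal expression, 1 rose and 2 fell in limma, against 1.27% and 0.386% of all genes, and the median was -0.03. Of the 26, 13 had an unadjusted p under 0.05, against 19.9% of all genes. On all arrays 6 were higher and 8 lower, against 22.5% and 19.1% of all genes. H19, a growth-restraining noncoding RNA, rose to 3.27 ± 0.39 (9.65-fold, limma adjusted p = 0.0354). The cell cycle inhibitor gene Cdkn1c fell to -3.53 ± 0.42 (limma adjusted p = 0.0354) and the IGF2 scavenger receptor gene Igf2r to -2.20 ± 0.52 (limma adjusted p = 0.0453). So H19 was higher, like Meg3 and Mirg, while the other maternally expressed genes that passed were lower.

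Of 28 measured genes with paternal expression, 1 rose and none fell in limma and 8 had an unadjusted p under 0.05, against 19.9% of all genes. On all arrays 10 were higher and 2 lower, against 22.5% and 19.1% of all genes, and the median was 0.47. The gene that passed was Airn, the antisense RNA that silences Igf2r on the paternal chromosome, at 3.62 ± 0.31 (12.3-fold, limma adjusted p = 0.0354). The growth factor gene Igf2, neighbour of H19, stood at 2.12 ± 1.13 (limma adjusted p = 0.0971) and the zinc finger gene Peg3 at 2.96 ± 1.12 (limma adjusted p = 0.0569). At both H19 and Igf2, genes of opposite parental expression had positive ratios on every array, as Meg3 and Dio3 did.

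Genes that place or keep imprints were measured for 18 of 18. None passed in limma, 2 had an unadjusted p under 0.05, and the median was -0.01. The imprint-keeping zinc finger gene Zfp445 stood at 1.46 (limma adjusted p = 0.0655), and Tet1 and Tet2, which oxidise methylated cytosine, at 0.95 and 0.39 (limma adjusted p of 0.0863 and 0.413). For the Polycomb complex PRC2, which binds Meg3 RNA, 10 of 11 genes were measured, none passed, 1 had an unadjusted p under 0.05, and the median was 0.08. Rbbp7, which the complex shares with other chromatin complexes, stood at 1.43 (limma adjusted p = 0.0529), Aebp2 at 0.41 (limma adjusted p = 0.395) and Rbbp4 at -0.38 (limma adjusted p = 0.334), and the catalytic subunit gene Ezh2 did not pass the filter. Over all 8 lists 134 genes were measured, of which 3 rose and 2 fell.

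**Figure D4:**
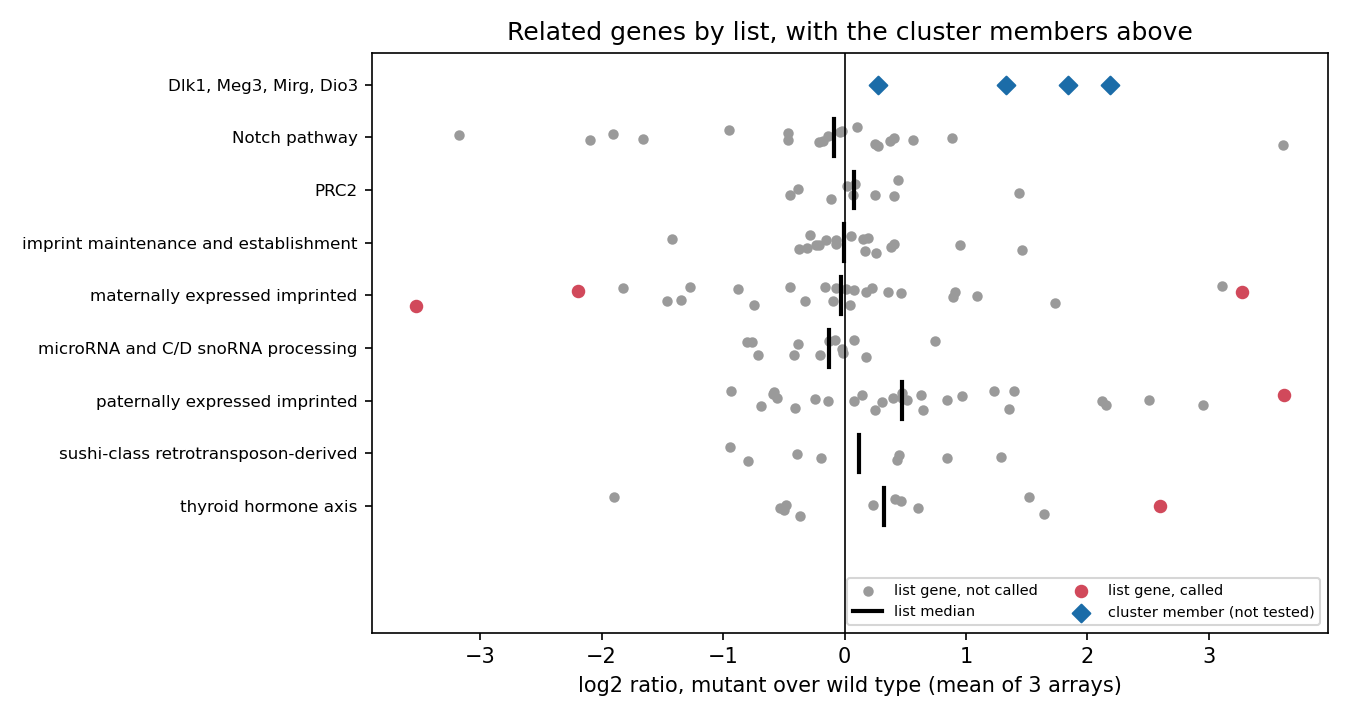
Mean log2 ratio of mutant over wild type (horizontal axis) of each measured gene in 8 lists, with list medians as black bars, genes that passed in limma in red, and the brightest probes of Dlk1, Meg3, Mirg and Dio3 as diamonds in the top row. The medians lie between -0.12 and 0.47, and single list genes lie between -3.53 (Cdkn1c) and 3.62 (Airn). Dlk1 lies at 0.28, and Meg3, Mirg and Dio3 lie between 1.33 and 2.19. The members were chosen by these ratios, so nothing is read from their distance to the medians.

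Markers of several cell types were higher alongside Meg3, Mirg and Dio3. Of 10 visceral endoderm markers, 9 were higher on all arrays (22.5% of all genes) and 2 rose in limma (1.27% of all genes), and their summed normalized intensity ran between 388500 and 738600 in the mutant, against 61730 to 192300 in wild type. All 8 cardiac muscle markers were higher on all arrays, 2 of them passing, with sums of 21300 to 106500 in the mutant, against 8401 to 13070 in wild type. Of 7 measured mesenchyme markers 6 were higher on all arrays and 2 passed, with sums of 161100 to 190300 in the mutant, against 30310 to 57590 in wild type. These sums did not overlap between the genotypes. Neither did those of the maternally and paternally expressed, PRC2, thyroid hormone and trophoblast lists, so this is not particular to these cell types. Sums of some other lists overlapped, and the share of all genes without overlap was not computed. The part of these cells in the ratios of the cluster was not tested.

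Single markers of these lists showed the same spread between arrays. The cardiac troponin gene Tnnt2 rose to 3.17 ± 0.69 (limma adjusted p = 0.0407), and Afp, made by visceral endoderm, stood at 2.33 ± 1.92 (limma adjusted p = 0.188). Neural markers went the other way, with 7 of 8 lower on all arrays (19.1% of all genes), none passing in limma (7 with an unadjusted p under 0.05, against 19.9% of all genes), and sums of 2222 to 3821 in the mutant, against 4318 to 31670 in wild type. Tubb3, neuronal tubulin, stood at -1.90 ± 1.21 (limma adjusted p = 0.131). The sums of 8 pluripotency markers overlapped, at 22800 to 205000 in the mutant, against 90910 to 237600 in wild type, and Pou5f1 changed sign at -2.77, -2.65 and 0.90. Of 7 measured trophoblast markers, 2 rose in limma (1.27% of all genes), 3 were higher and 2 lower on all arrays, and the median was 0.02. Of the skeletal muscle markers Myod1, Myf5 and Myog did not pass the filter, and of the 4 measured none passed in limma and none had an unadjusted p under 0.05.

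The genotypes also differed in a Y-linked signal. On no array was Eif2s3y or Ddx3y well above background in mutant RNA. The mean of Eif2s3y was lower in the mutant by at least 92.8-fold (limma adjusted p = 0.0354) and that of Ddx3y by at least 23.7-fold (limma adjusted p = 0.0356), bounds set by the dimmest signal still called well above background and open to dye bias. Xist did not pass the filter. This difference and the Dido genotype cannot be told apart, since it separates all mutant from all wild-type RNAs.

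For each of the 4 members above the filter, the genes with the most similar array ratios were sought among 17472 genes detected in both genotypes. The distance is Euclidean over the 3 log2 ratios of the brightest probes. Nearest to Meg3 were Asb7 (distance 0.11) and Rsph10b2 (0.12), and nearest to Mirg were Akr1c19 (0.19) and Lrrc3b (0.24). Nearest to Dio3 were Gm8120 (0.25) and Stau2 (0.26), and nearest to Dlk1 were Wnk2 (0.14) and Fcer1g (0.26). No gene was named for more than 1 member. By mean log2 ratio, Dio3 ranked 234, Mirg 390, Meg3 799 and Dlk1 5492 of 19667 genes.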

How the data were processed

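From embryoid bodies of day 10, 1 ug of total RNA was amplified, and 300 ng of cRNA per dye were hybridised in 2 colours to Agilent 4x44K v2 mouse arrays (per the labels' protocols). The deposited scanner files hold mean spot and median local background intensity and a dye-normalized log10 ratio of red over green, which per the file headers come from version 10.7.3.1 of Agilent Feature Extraction. A value table that the authors deposited gives log2 ratios, for which the submitters' processing notes name limma and the sources used here give no other step. Against the scanner log ratios, turned as mutant over wild type, its columns correlated at 0.951, 0.941 and 0.945 with slopes of 0.645, 0.627 and 0.681 over 24601 spots and had medians of -0.01, 0.02 and -0.01. Its direction is thus mutant over wild type, while its centring and background steps stay unknown.

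In R 4.3.3 with limma 3.58.1, local background was limited to 100 units, because on array 2 it exceeded this at 25 spots (up to 75739) and the SD of its log2 ratios was 0.80 with the limit and 0.49 without it. Normexp (offset 50) corrected the signals and loess within arrays, giving control spots weight 0, normalized them. After removal of control and outlier spots, replicate spots were averaged, and 25496 of 39429 probes were kept, those that on all 3 arrays were well above background in mutant or in wild-type RNA. The brightest probe stood for a gene, 19667 in all. The two-sided limma test (lmFit, eBayes) of a mean ratio of 0 had 4.76 degrees of freedom and used a Benjamini-Hochberg threshold of 0.05. It was also run on simulated ratios with independent noise on each array. These had no dye effect and no array that stands apart, so nothing is read from that run. Channel levels were scaled with Aquantile. Median spot intensity was 192 to 288.3 in mutant and 150.5 to 210.4 in wild-type channels over a background of 36 to 40 units. No spot was saturated, and all arrays were on 1 slide. Precision is limited throughout by the number of arrays, 3.

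A RefSeq table of GRCm38.p6 gave symbols by accession (27234 probes), symbol (3576) or synonym (565), and 8054 probes kept the file's name. By choice, 6430411K18Rik and 1110006E14Rik also kept the file's name and were not renamed by synonym. RefSeq lists 6430411K18Rik under Rtl1 although its probe lies on the other strand. Coordinates are those of the files (mm9). The members, the gene lists and the limit on background were chosen with earlier results of these data known. Named are all members and genes between them, the 2 genes with the smallest p within 1 Mb on each side, up to 3 of each list with the smallest p, Dido1, the 2 genes most like each member, and Pou5f1, Afp, Tnnt2, Tubb3, Eif2s3y and Xist. Further names were chosen after their values were seen. The 16 alternatives changed the background step, normalization, filter, choice of probe, dye term, channel model and replicates. The sequence of 1 probe is not reported here.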

Additional observations from a re-analysis of the deposited data

How the results depend on the processing

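On the brightest probes, or in 1 alternative on the mean of a gene's probes, 3 cluster members were higher on all arrays under each of the 16 alternatives except without replicate 3. There 4 were, and none was lower on all arrays under any. The changed filters, the dye term and the separate-channel fit reuse the main ratios, and leaving out a replicate cannot lower this count. As these ratios chose the members, nothing is read from its steadiness. Meg3 ran between 1.18 and 2.57, Mirg between 1.71 and 2.67 and Dio3 between 1.66 and 2.40. Dlk1 ran between -0.25 (mean of its probes) and 0.62 (without replicate 3). The counts of genes that passed differed between alternatives. Of all genes, 249 higher and 76 lower in the mutant became 0 and 0 without the limit on local background (3021 genes with an unadjusted p under 0.05), with the authors' values (3838) and with no filter (4860). They became 542 and 191 with an offset of 16, 582 and 187 with the scanner's log ratio, and 1549 and 985 with a dye term. In the separate-channel fit, which models the correlation between the 2 channels of a spot and has no replicate block, they were 959 and 351. Leaving out a replicate gave 0 to 3047 higher and 0 to 2035 lower, with 0 without replicate 1 (1659 genes with an unadjusted p under 0.05) or 3 (2370). For the lists, 3 higher and 2 lower became 0 and 0 without the limit, with the authors' values and with no filter, 6 and 4 with an offset of 16, 5 and 5 with the scanner's ratio, 18 and 13 with a dye term and 12 and 9 in the separate-channel fit. With no background correction and with scaling between arrays 1 list gene was lower. Leaving out a replicate gave 0 to 24 higher and 0 to 20 lower list genes. Among the neighbours, 1 higher became 0 without the limit, with the authors' values and with no filter, 2 with the scanner's ratio, 3 with a dye term and 3 in the separate-channel fit, and 0 to 6 higher and 0 to 3 lower when a replicate was left out. The cause was not tested. With the dye term array 2 is fitted exactly. Leaving out replicate 2 leaves only arrays with mutant RNA in Cy3. Probes near background, such as Rtl1, carry no usable ratio.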
